A study of Mus musculus with 8 samples.

Results

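BMAL1 ChIP-seq peaks nearest to olfactory and vomeronasal receptor genes were described in HC11 cells, an established mammary epithelial line of the mouse in which lactogenic hormones switch on milk protein genes. A peak was counted as a receptor peak when the annotated transcription start site nearest to its centre, among curated RefSeq transcripts of GRCm38, belonged to a gene with a symbol starting with Olfr, Vmn1r or Vmn2r. There were 4182 receptor peaks among 211109 peaks in all, with 216 of 13683 in DIFF1, 3765 of 185417 in DIFF2, 83 of 6534 in UNDIFF6 and 118 of 5475 in UNDIFF8. Differentiated cultures (DIFF1 and DIFF2) and undifferentiated cultures (UNDIFF6 and UNDIFF8, called UNDIFF1 and UNDIFF2 in the study) were both kept for 48 h at confluence in EGF-free medium that held 10% calf serum plus insulin (5 µg/mL). Only the DIFF cultures went on for a further 96 h with 0.1 µM dexamethasone and 5 µg/mL each of prolactin and insulin, again in 10% calf serum. Chromatin was fixed with 1% formaldehyde, and the 4 ChIP experiments were independent, each with its own input DNA. The peaks were called by the authors in each sample separately, so 1 list stands for 1 sample. All cultures came from 1 cell line, which limits the groups as a model of the gland.

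BMAL1 pairs with CLOCK and binds the E-box CACGTG in promoters and enhancers of clock genes. Olfactory receptors (Olfr) are G protein-coupled receptors of odour-sensing neurons, each of which uses very few of the many genes. Vmn1r and Vmn2r receptors serve pheromone detection in neurons of the vomeronasal organ, and signal there through the G proteins Gnai2 and Gnao1. The genes arose by tandem duplication, stand in dense clusters of related copies, some of them near-identical, and the clusters are rich in repeats. No expression values were used here, so whether HC11 cells transcribe any of these genes was not examined.

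Each state gave receptor sites that were found in both of its lists, and the 17 shared by DIFF1 and DIFF2 are not printed. The sites found in both UNDIFF lists are shown first. There were 5, at 6.02% of the UNDIFF6 and 4.24% of the UNDIFF8 receptor peaks, where 1.45% of all UNDIFF6 and 1.74% of all UNDIFF8 peaks overlapped the other list. Each is printed as the UNDIFF8 peak on the plus strand of GRCm38, with the bases that the UNDIFF6 peak also covers in capitals.
Olfr161 UNDIFF8, chr16:3116269-3116497: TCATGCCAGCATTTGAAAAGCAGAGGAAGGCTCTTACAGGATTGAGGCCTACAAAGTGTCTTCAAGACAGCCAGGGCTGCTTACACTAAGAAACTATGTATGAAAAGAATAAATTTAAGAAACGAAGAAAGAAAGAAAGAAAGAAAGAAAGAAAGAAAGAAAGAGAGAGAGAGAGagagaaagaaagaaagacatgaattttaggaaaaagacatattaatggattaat
Olfr112 UNDIFF8, chr17:37558929-37559157: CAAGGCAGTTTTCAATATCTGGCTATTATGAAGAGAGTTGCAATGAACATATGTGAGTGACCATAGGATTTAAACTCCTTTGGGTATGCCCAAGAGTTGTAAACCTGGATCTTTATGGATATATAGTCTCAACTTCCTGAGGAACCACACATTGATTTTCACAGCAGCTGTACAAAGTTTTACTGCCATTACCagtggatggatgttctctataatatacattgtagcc
Olfr372 UNDIFF8, chr8:72040025-72040253: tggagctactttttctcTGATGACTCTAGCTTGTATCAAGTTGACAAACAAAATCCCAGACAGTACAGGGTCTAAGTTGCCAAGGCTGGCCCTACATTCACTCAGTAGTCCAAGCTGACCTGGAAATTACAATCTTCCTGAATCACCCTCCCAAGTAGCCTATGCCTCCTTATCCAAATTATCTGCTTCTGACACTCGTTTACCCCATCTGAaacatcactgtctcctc
Olfr209 UNDIFF8, chr16:59361646-59361874: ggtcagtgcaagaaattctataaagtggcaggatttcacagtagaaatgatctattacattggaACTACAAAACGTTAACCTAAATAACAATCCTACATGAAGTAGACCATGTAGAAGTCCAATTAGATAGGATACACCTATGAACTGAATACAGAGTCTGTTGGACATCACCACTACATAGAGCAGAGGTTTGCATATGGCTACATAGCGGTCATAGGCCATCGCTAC
Olfr206 UNDIFF8, chr16:59350841-59351069: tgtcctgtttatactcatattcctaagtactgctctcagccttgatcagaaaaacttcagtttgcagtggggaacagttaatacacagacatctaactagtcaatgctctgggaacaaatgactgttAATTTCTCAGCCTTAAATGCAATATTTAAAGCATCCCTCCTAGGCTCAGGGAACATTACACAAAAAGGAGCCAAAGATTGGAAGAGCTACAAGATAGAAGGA
The shared part of the Olfr161 peak ends in GAAA and then GA repeats. The Olfr209 peak lies inside the coding exon of that gene. None of the 5 printed peaks holds CACGTG.

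The DIFF1 peak over the start of Olfr209 is shown because this receptor had a peak in all 4 lists. Olfr209 lies on the minus strand, the curated transcript begins at its start codon, and the capitals mark that codon as read on the plus strand.
Olfr209 DIFF1, chr16:59362023-59362237: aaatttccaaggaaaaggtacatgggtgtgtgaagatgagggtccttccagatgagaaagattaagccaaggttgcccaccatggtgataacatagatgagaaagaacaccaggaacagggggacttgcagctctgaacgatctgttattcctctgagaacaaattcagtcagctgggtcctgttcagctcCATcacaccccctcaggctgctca
This peak and the UNDIFF peaks in the same exon share no base.

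Outside DIFF2, 3 receptor peaks held an E-box, and they are shown with CACGTG in capitals, again on the plus strand.
Olfr284 DIFF1, chr15:98343698-98343912: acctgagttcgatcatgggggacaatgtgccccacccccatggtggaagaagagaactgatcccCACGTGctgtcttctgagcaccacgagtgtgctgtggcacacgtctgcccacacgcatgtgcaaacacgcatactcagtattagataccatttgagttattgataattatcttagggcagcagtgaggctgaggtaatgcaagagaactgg
Olfr136 UNDIFF6, chr17:38367628-38367822: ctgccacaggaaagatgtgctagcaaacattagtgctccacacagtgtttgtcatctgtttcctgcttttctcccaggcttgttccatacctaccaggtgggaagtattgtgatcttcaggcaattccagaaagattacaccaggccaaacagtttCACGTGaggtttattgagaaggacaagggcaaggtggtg
Vmn2r44 UNDIFF8, chr7:8419314-8419542: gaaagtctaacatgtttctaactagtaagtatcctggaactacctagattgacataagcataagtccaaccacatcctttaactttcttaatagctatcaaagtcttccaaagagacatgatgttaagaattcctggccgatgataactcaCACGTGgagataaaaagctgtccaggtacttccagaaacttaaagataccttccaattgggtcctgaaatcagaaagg
The Olfr284 peak had a fold over input of 5.52 and lay 2.87 kb upstream of the start site, and the Vmn2r44 peak had a fold of 14.2 and lay 36.2 kb upstream. The Olfr136 peak had a fold of 2.69 and lay 32.6 kb downstream.

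DIFF2 held most of the receptor peaks, and the last sequence is the central 300 bases of the DIFF2 peak that holds most of the 10 commonest 12-base words of its receptor peaks, with those words in capitals.
Olfr459 DIFF2, chr6:41773547-41773846: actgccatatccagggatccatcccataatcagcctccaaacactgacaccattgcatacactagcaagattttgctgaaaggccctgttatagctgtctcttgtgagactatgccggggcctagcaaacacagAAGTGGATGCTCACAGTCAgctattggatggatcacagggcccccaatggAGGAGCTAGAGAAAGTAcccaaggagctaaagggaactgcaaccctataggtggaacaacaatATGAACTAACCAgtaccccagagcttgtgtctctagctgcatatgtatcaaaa
The whole peak was soft-masked, which is how the reference genome marks repeats, and its central 50 bases occur 5248 times in the genome. It lay 1.40 kb upstream of Olfr459 with a fold over input of 3.86.

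The lists differ in depth and size. The smaller of the ChIP and input tag totals, computed from the listed tags of the peaks, was 57.5 M for DIFF1, 35.3 M for DIFF2, 80.3 M for UNDIFF6 and 77.3 M for UNDIFF8. The lowest score that the peak caller (findPeaks) gave to a listed peak was 24 in DIFF1, 14 in DIFF2, 23 in UNDIFF6 and 24 in UNDIFF8. The DIFF2 list thus goes down to lower scores than the others. Peaks outside receptor sequence were spread unevenly over chromosomes, from 1.36 to 12.2 per Mb in DIFF1, 49.1 to 103 in DIFF2, 0.287 to 7.48 in UNDIFF6 and 0.160 to 7.33 in UNDIFF8 among the 19 chromosomes with receptors. Chromosome 7, which holds 16.5 Mb of the 54.6 Mb nearest to receptors, had only 1.66, 50.5, 0.391 and 0.311 such peaks per Mb in DIFF1, DIFF2, UNDIFF6 and UNDIFF8. Receptor counts were therefore set against other peaks of the same chromosome.

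Receptor peaks made up 1.58% of DIFF1 (95% Wilson interval 1.38 to 1.80%), 2.03% of DIFF2 (1.97 to 2.10%), 1.27% of UNDIFF6 (1.03 to 1.57%) and 2.16% of UNDIFF8 (1.80 to 2.57%). These intervals cover counting error only. The mean share was 1.80 ± 0.32% in DIFF and 1.71 ± 0.63% in UNDIFF lists (SD, n = 2 each), and the difference of 0.092 percentage points was smaller than the spread within either state (exact permutation test, two-sided p = 1, where 2 against 2 cannot go below 0.33). Sequence nearest to a receptor start site makes up 2.06% of the genome without gaps. UNDIFF8 and DIFF2 stood near that share, while DIFF1 and UNDIFF6 stood below it.

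**Figure D1:**
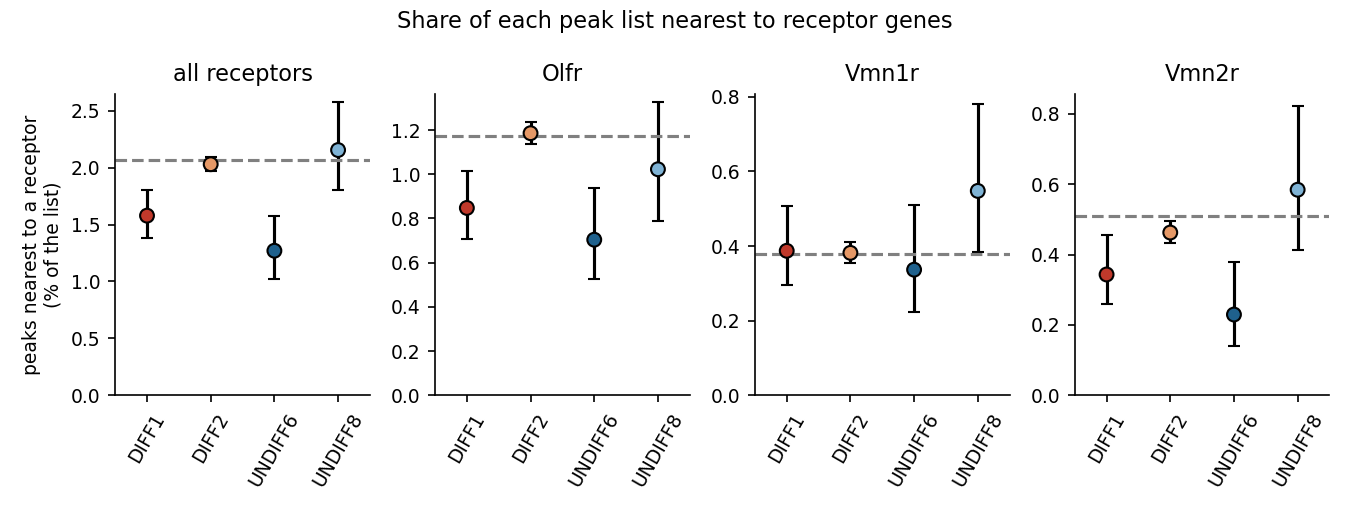
Percent of the peaks of each list that are nearest to a receptor gene, for all receptors and for each family, in DIFF1, DIFF2, UNDIFF6 and UNDIFF8. Bars are 95% Wilson intervals, which cover counting error only, and the dashed line is the family's share of genome bases, which is 2.06% for all receptors.

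The Olfr family, of 1125 genes with curated transcripts, had 116, 2199, 46 and 56 peaks in DIFF1, DIFF2, UNDIFF6 and UNDIFF8. The 230 Vmn1r genes had 53, 708, 22 and 30, and the 127 Vmn2r genes 47, 858, 15 and 32. With the density of other peaks on the same chromosomes, 219 receptor peaks were expected in DIFF1, 3568 in DIFF2, 90.8 in UNDIFF6 and 67.1 in UNDIFF8. The counts were 0.987, 1.06, 0.914 and 1.76 times these. The log2 ratio averaged 0.19 over the lists (exact sign-flip permutation test, two-sided p = 0.75, with 0.125 the lowest p for 4 lists), and the 4 values ran from -0.13 in UNDIFF6 to 0.82 in UNDIFF8. Counting only peaks and 10 kb grid windows whose central 50 bases stand at 1 place in the genome, an alternative chosen after seeing the data, the log2 ratios were 0.15, 0.26, 0.06 and 1.07 in DIFF1, DIFF2, UNDIFF6 and UNDIFF8. Among peaks without a soft-masked centre, set against sequence that is not soft-masked, they were 0.07, -0.44, 0.08 and 1.05, so the DIFF2 ratio lay under 1 there.

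UNDIFF8 stood apart from the other lists. Its ratio was 1.67 for Olfr, 1.87 for Vmn1r and 1.83 for Vmn2r genes. UNDIFF6, the other undifferentiated culture, had ratios of 0.946, 1.21 and 0.627 for the same families. In DIFF1 they were 0.971, 1.33 and 0.788, and in DIFF2 1.08, 1.11 and 0.957. Vmn1r genes had the highest ratio of the families in all 4 lists, with 53, 22 and 30 peaks behind it in DIFF1, UNDIFF6 and UNDIFF8. Single places held much of the UNDIFF8 counts. Of its 56 Olfr peaks, 13 were nearest to Olfr161, where 0.677 were expected. Of its 32 Vmn2r peaks, 12 lay in the cluster at 22.6 to 23.5 Mb of chromosome 17, where 0.945 were expected. Without UNDIFF8 the mean log2 ratio of the lists was -0.02. The number of chromosomes with more receptor peaks than expected did not set UNDIFF8 apart, with 14 of 19 in DIFF1, 12 in DIFF2, 10 in UNDIFF6 and 13 in UNDIFF8.

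The receptor genes formed 68 clusters of start sites with gaps of at most 1 Mb, 17 of them with 1 gene. A peak was found in 51 clusters in DIFF1, 65 in DIFF2, 27 in UNDIFF6 and 34 in UNDIFF8, and 20 clusters had a peak in every list. The 10 clusters with the most genes hold 895 genes, 60.4% of all receptors, but only 18.1% of the receptor peaks of DIFF1, 38.7% of DIFF2, 20.5% of UNDIFF6 and 19.5% of UNDIFF8. Relative to the rest of their chromosomes these clusters had 0.605, 0.980, 0.795 and 1.76 times the expected peaks, and the other clusters 1.15, 1.11, 0.951 and 1.76 times. These 10 clusters hold 47.7% of the sequence nearest to receptors.

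The largest cluster, 226 Olfr genes at 85.3 to 90.4 Mb of chromosome 2, was below expectation in every list. It had 1 peak in DIFF1, 231 in DIFF2, 3 in UNDIFF6 and 1 in UNDIFF8, where 13.9, 305, 5.66 and 2.56 were expected. The DIFF1 ratio was 0.072. Among windows on a 10 kb grid over this cluster, 80.9% had a central 50 bases found at 1 place in the genome, against 86.2% of windows outside receptor sequence. Counting only peaks and windows of that kind, the ratios were 0.082, 0.815, 0.402 and 0.449.

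The Vmn1r cluster at 20.1 to 24.1 Mb of chromosome 7, with 87 genes, was below expectation too, though in UNDIFF8 by next to nothing. It had 1, 71, 0 and 1 peaks in DIFF1, DIFF2, UNDIFF6 and UNDIFF8, where 5.42, 165, 1.28 and 1.02 were expected. Here only 15.8% of the grid windows had a central 50 bases found at 1 place in the genome. Among peaks and windows of that kind the DIFF2 count was 41 against 20.9 expected, a ratio of 1.97, where all peaks gave 0.430. The UNDIFF8 count of 1 stood against 0.147 by the same measure. The sources used here do not say how reads that fit several copies were placed, and the part of such reads in these counts was not tested.

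The mixed cluster at 5.15 to 13.2 Mb of chromosome 7 holds 35 Vmn1r, 29 Vmn2r and 8 Olfr genes. It had 6 peaks in DIFF1, 255 in DIFF2, 2 in UNDIFF6 and 10 in UNDIFF8, against 8.75, 266, 2.06 and 1.64 expected. With all peaks only the UNDIFF8 count was above expectation. Counting only peaks and windows with a central 50 bases found at 1 place, all 4 lists were above it, with ratios of 1.27, 1.73, 2.07 and 9.40 in DIFF1, DIFF2, UNDIFF6 and UNDIFF8. The UNDIFF8 value rests on 6 peaks against 0.638 expected, and the UNDIFF6 value on 2 against 0.968. Of the windows of this cluster, 42.8% were of that kind.

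The other Olfr clusters among the 10 largest had few peaks outside DIFF2. The 125 genes at 102.5 to 105.4 Mb of chromosome 7 had 2, 134, 0 and 0 peaks in DIFF1, DIFF2, UNDIFF6 and UNDIFF8, and the 99 genes at 37.7 to 40.2 Mb of chromosome 9 had 3, 133, 0 and 0. The 62 receptor genes, mostly Olfr, at 129.0 to 130.5 Mb of chromosome 10 had 1, 103, 0 and 0. In none of these 3 clusters did the expected number reach 2 in an UNDIFF list, so a count of 0 shows no depletion there. The 68 genes at 106.7 to 108.9 Mb of chromosome 7 had 2, 120, 1 and 2 peaks, and the DIFF2 count was 1.49 times the expected. The 62 genes at 11.8 to 13.9 Mb of chromosome 19 had 11, 195, 4 and 4, the 46 genes at 37.1 to 38.3 Mb of chromosome 17 had 8, 117, 6 and 5, and the 48 Olfr and Vmn1r genes at 21.1 to 23.3 Mb of chromosome 13 had 4, 97, 1 and 0.

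Of the 29 clusters with 10 or more genes, 3 were above expectation in every list and 4 below it. With single-place centres only, 5 were above in every list and 3 below, the clusters at 20.1 to 24.1 Mb of chromosome 7 and 49.9 to 52.5 Mb of chromosome 14 being no longer below in all. The clusters named next were picked with their values in view. The cluster of 28 Vmn1r genes at 57.0 to 58.5 Mb of chromosome 6 had 17, 175, 12 and 16 peaks in DIFF1, DIFF2, UNDIFF6 and UNDIFF8, which were 1.29, 1.43, 1.60 and 2.35 times the expected. It held 14.5% of the receptor peaks of UNDIFF6 and 13.6% of those of UNDIFF8. The 27 Olfr genes at 58.8 to 59.4 Mb of chromosome 16, among them Olfr206 and Olfr209, had 6, 55, 5 and 4 peaks at 1.54, 1.03, 3.22 and 5.20 times the expected. The 21 Olfr genes at 41.8 to 43.2 Mb of chromosome 6 had 13, 82, 6 and 6 peaks, at 1.75, 1.19, 1.42 and 1.56 times. In a smaller cluster of 9 Vmn2r genes at 22.6 to 23.5 Mb of chromosome 17, UNDIFF8 had 12 peaks where 0.945 were expected, beside 6, 45 and 2 in DIFF1, DIFF2 and UNDIFF6 with 4.13, 47.9 and 1.62 expected. Of the 12, 11 had a central 50 bases found at 1 place in the genome, though only 45.8% of the grid windows of that cluster did.

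Clusters with fewer peaks than expected were also seen among the smaller ones. The 9 Vmn2r genes at 123.3 to 124.2 Mb of chromosome 6 had 0 peaks in DIFF1, 84 in DIFF2 and 0 in both UNDIFF lists, where 10.3, 95.7, 5.87 and 5.32 were expected. With single-place centres only, 5.89, 3.47 and 3.10 were expected in DIFF1, UNDIFF6 and UNDIFF8, still against 0, while DIFF2 had 47 peaks against 40.8 expected and so stood above expectation. The 20 Olfr genes at 173.0 to 174.4 Mb of chromosome 1 had 16 peaks in DIFF2 with 53.0 expected, beside 5 in DIFF1 with 4.91 expected. The 38 genes at 49.9 to 52.5 Mb of chromosome 14 had 9, 88, 1 and 1 peaks, with 9.24, 108, 3.30 and 2.51 expected, and a DIFF1 ratio of 1.02 with single-place centres only. On the X chromosome, 1 Vmn2r gene at 124.1 Mb with 1.08 Mb of nearest sequence had 1 peak in DIFF2, where 53.0 were expected, but only 10.1% of its windows had a centre found at 1 place. The 5 Olfr genes at 49.7 to 50.4 Mb of the X chromosome went the other way, with 101 peaks in DIFF2 and 4 in UNDIFF8, where 40.3 and 0.757 were expected.

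**Figure D2:**
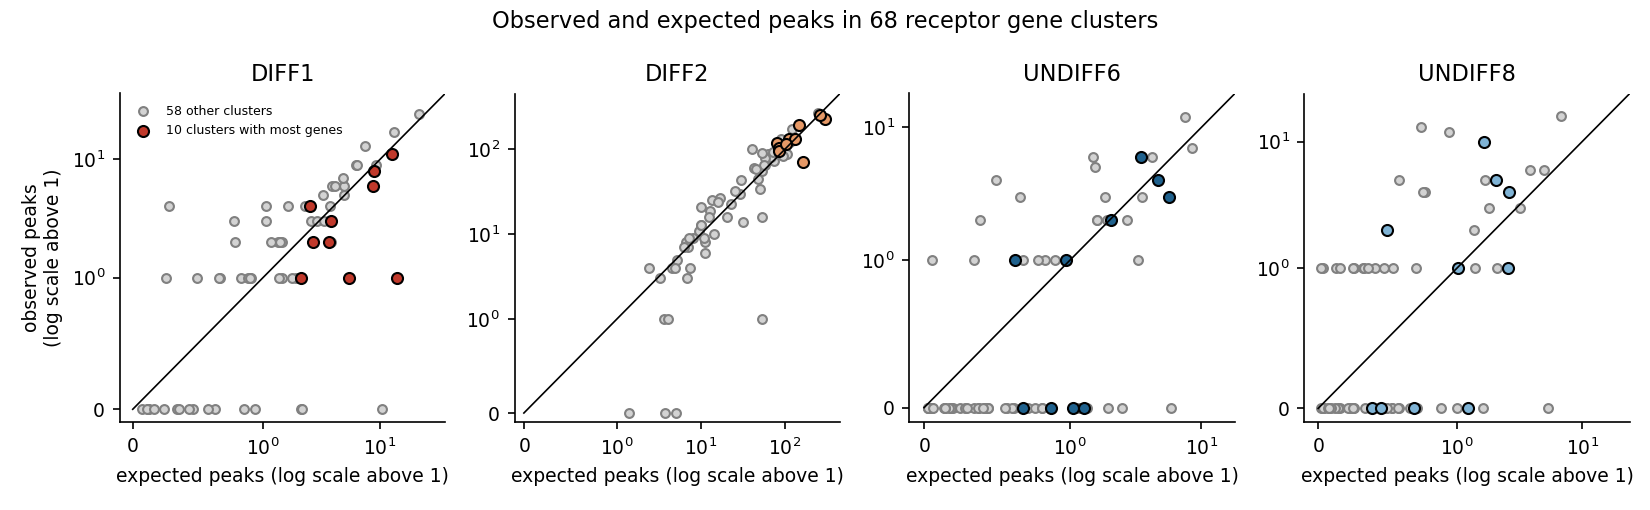
Observed against expected receptor peaks in 68 gene clusters, 1 point per cluster and 1 panel per list, on axes that are linear up to 1 and logarithmic above. Expected numbers come from other peaks of the same chromosome, coloured points are the 10 clusters with the most genes, and the line marks equal numbers. Most DIFF2 points lie near the line, with the gene at 124.1 Mb of the X chromosome far below it at 1 peak, and several clusters with under 2 expected peaks in UNDIFF8 have over 3.

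A receptor gene was nearest to a peak in 167 cases of 1482 in DIFF1, 1086 in DIFF2, 63 in UNDIFF6 and 82 in UNDIFF8. These are 11.3, 73.3, 4.25 and 5.53% of the receptor genes, against 25.3, 81.0, 13.8 and 9.41% of other genes, which have more sequence each. In 371 cases it was nearest to none, and in 894 to peaks of 1 list only. There were 13 receptors with a peak in all 4 lists, namely Olfr112, Olfr1505, Olfr161, Olfr209, Olfr267, Olfr372, Olfr441, Vmn1r15, Vmn1r238, Vmn1r29, Vmn1r30, Vmn1r39 and Vmn2r111. These have much sequence of their own. The median length nearest to a gene was 82.8 kb for receptors in 4 lists, 69.2 kb in 3, 38.1 kb in 2, 26.3 kb in 1 and 18.2 kb in none, so the number of lists goes with the length that can hold a peak. Other genes were not counted by number of lists, so the counts of 371, 894 and 13 show nothing particular to receptors.

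Olfr161 had the most Olfr peaks in DIFF1, UNDIFF6 and UNDIFF8, with 4, 6 and 13, and 28 in DIFF2. It has the first curated start site of chromosome 16, with 563 kb of sequence nearest to it from the first sequenced base at position 3000001. From the density of chromosome 16, 3.42 peaks were expected in DIFF1, 47.0 in DIFF2, 1.37 in UNDIFF6 and 0.677 in UNDIFF8, which gives ratios of 1.17, 0.596, 4.39 and 19.2. Its highest scoring peaks were ranked 16th of all peaks in DIFF1, 60th in DIFF2, 2nd in UNDIFF6 and 21st in UNDIFF8. Input tags were also high there. They were 14.5 at the top Olfr161 peak of DIFF1, 7.2 in DIFF2, 13.5 in UNDIFF6 and 10.6 in UNDIFF8, where the median of other peaks was 4.0, 4.8, 7.0 and 6.3. The part of this high input in the peaks was not tested. Without the peaks and sequence nearest to Olfr161 and Vmn1r2, which both adjoin a chromosome start, the ratio of UNDIFF8 was 1.58. Vmn1r238, with its start site at 3.12 Mb of chromosome 18, was kept in. It had 4, 13, 1 and 1 peaks in DIFF1, DIFF2, UNDIFF6 and UNDIFF8, at 14.5, 1.31, 17.3 and 30.8 times the expected. The UNDIFF6 and UNDIFF8 values rest on 0.058 and 0.032 expected peaks.

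The Olfr161 site printed first above was shared by DIFF2, UNDIFF6 and UNDIFF8. The peaks spanned chr16:3116227-3116563 in DIFF2, chr16:3116249-3116443 in UNDIFF6 and chr16:3116269-3116497 in UNDIFF8, 476 kb upstream of the start site. Their scores were 91, 108 and 83.5 and their folds over input 18.2, 7.65 and 5.47. DIFF1 had no peak there, and its 4 Olfr161 peaks lay from 361 kb to 65.5 kb upstream of the start site.

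Vmn1r2, at the start of chromosome 4, held the highest scoring receptor peak of DIFF2, with a score of 101 and a fold over input of 13.1, 82.0 kb upstream. Vmn1r236 held the third highest receptor peak of DIFF2, with a score of 54 and a fold of 3.21, and Vmn1r41 that of DIFF1, with a score of 52 and a fold of 2.18. The Vmn1r41 site was shared with DIFF2, where its score was 51.5. Scores rank peaks within a list. They were compared between lists only for the lowest score of each list and to pick the genes named at shared sites below.

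Other receptors with the most peaks of their family were Vmn1r238 with 4 in DIFF1, Olfr1324 with 36, Vmn2r120 with 27, and Vmn1r27 and Vmn1r30 with 14 each in DIFF2, and Vmn2r100 and Vmn2r2 with 3 each in DIFF1. In UNDIFF8 they were Vmn1r30 with 3 and Vmn2r111 with 6. In UNDIFF6 no Vmn1r or Vmn2r gene had more than 2. Vmn2r111 had 2, 7, 2 and 6 peaks in DIFF1, DIFF2, UNDIFF6 and UNDIFF8 within 51.9 kb, at 5.49, 1.65, 14.0 and 71.9 times the density of chromosome 17, the UNDIFF8 value resting on 0.083 expected peaks. Its 6 UNDIFF8 peaks lay between 11.1 kb upstream and 28.2 kb downstream of the start site, with folds from 2.69 to 8.87.

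Receptor peaks lay closer to a start site than other peaks. The median distance was 12.4 kb in DIFF1, 11.5 kb in DIFF2, 12.6 kb in UNDIFF6 and 17.6 kb in UNDIFF8, against 57.7, 56.6, 64.2 and 82.4 kb for other peaks. Receptor genes are also closer to each other, with a median of 25.1 kb of nearest sequence per gene, against 45.0 kb for other genes. Peaks were assigned by their nearest start site, so that sequence bounds the distances. Distances of positions without a peak were not computed, so the difference shows no preference of receptor peaks for start sites. The part of this spacing was not tested. Upstream positions made up 51.9, 51.0, 53.0 and 56.8% of receptor peaks, in the order DIFF1, DIFF2, UNDIFF6 and UNDIFF8, against 43.4, 45.6, 43.2 and 45.6% of other peaks. Most receptor peaks were intergenic, with 86.1, 90.7, 84.3 and 85.6% in the same order, against 59.1, 62.6, 59.4 and 65.1% of other peaks. Introns held 7.41, 7.70, 10.8 and 8.47% of receptor peaks, against 37.9, 36.1, 37.4 and 32.7% of other peaks. The open reading frame of an Olfr or Vmn1r gene is usually a lone exon.

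**Figure D3:**
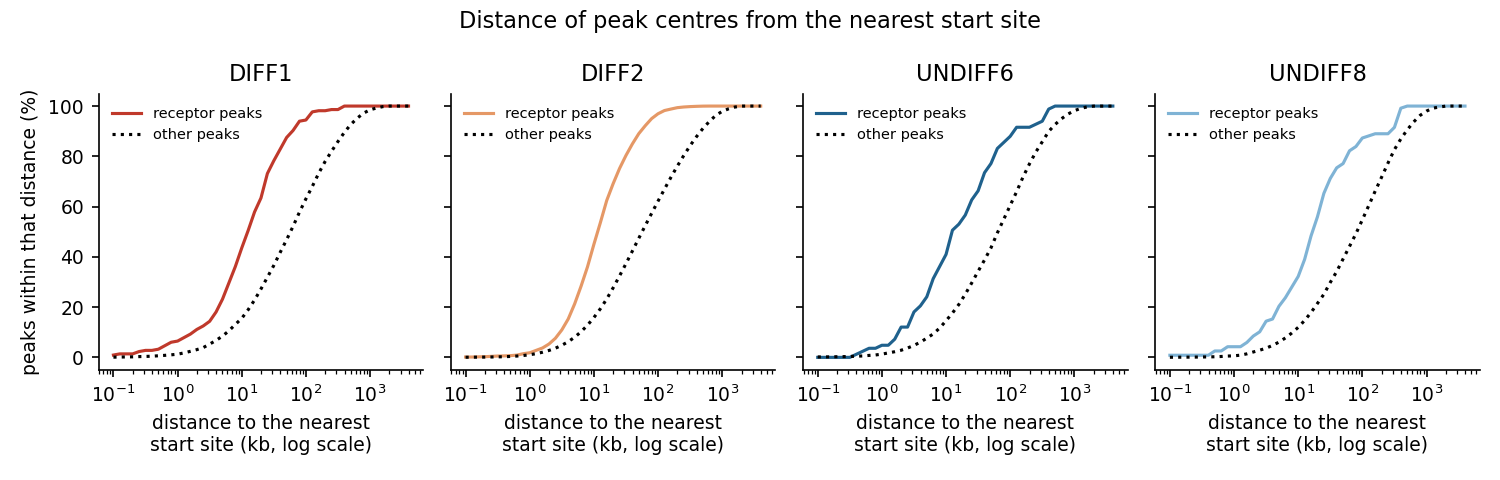
Percent of peaks (vertical axis) within a given distance in kb of the nearest annotated start site (horizontal axis, logarithmic), for receptor peaks as coloured lines and other peaks as dotted lines, in 1 panel per list. Within 10 kb lay 43.5, 45.0, 41.0 and 32.2% of receptor peaks in DIFF1, DIFF2, UNDIFF6 and UNDIFF8, against 15.5, 15.8, 14.6 and 11.9% of other peaks. The sequence nearest to a gene bounds these distances, with a median of 25.1 kb for receptors and 45.0 kb for other genes.

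Promoters, taken as 1 kb before to 100 bp after an annotated start site, held 5 receptor peaks of DIFF1, 58 of DIFF2, 0 of UNDIFF6 and 1 of UNDIFF8. These are 2.31, 1.54, 0 and 0.847% of the receptor peaks, against 0.750, 0.711, 0.899 and 0.429% of the other peaks. Receptor genes have a median of 25.1 kb of nearest sequence each, against 45.0 kb for other genes, so promoter windows fill more of receptor sequence. The share of bases in promoter windows was not computed, so the higher percentages in 3 of the 4 lists show no enrichment at receptor promoters. The DIFF1 promoters were those of Olfr1414, Olfr209, Olfr156, Olfr457 and Olfr371, with folds over input from 2.97 to 4.27 and centres from 981 bp upstream to 86 bp downstream. The UNDIFF8 promoter was that of Olfr450, with a fold of 6.47 and its centre 24 bp downstream. No promoter of a Vmn1r or Vmn2r gene held a peak outside DIFF2. In curated RefSeq 76.0% of the coding receptor transcripts begin at the start codon, against 0.975% of those of other genes, so most of these windows are set by the coding sequence and the true start can lie farther upstream.

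Coding exons held 8 receptor peaks of DIFF1, 3 of DIFF2, 4 of UNDIFF6 and 4 of UNDIFF8, which are 3.70, 0.080, 4.82 and 3.39% of the receptor peaks, against 1.16, 0.116, 1.01 and 0.709% of other peaks. The share of bases in coding exons was not computed for either kind of sequence. The genes, named with their values in view, were in DIFF1 Olfr427, Olfr789, Olfr172, Olfr1472, Olfr1491, Vmn1r231, Vmn1r236 and Vmn1r18. In UNDIFF6 they were Olfr209, Olfr102, Olfr1002 and Olfr47, in UNDIFF8 Olfr209, Vmn1r15, Vmn1r30 and Vmn1r54, and in DIFF2 Olfr561, Olfr6 and Olfr945. Olfr209 alone was found in this way in 2 lists. Fold over input at these 19 peaks ran from 2.38 to 16.9.

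Olfr209, on chromosome 16, had 2, 5, 1 and 2 peaks in DIFF1, DIFF2, UNDIFF6 and UNDIFF8 within 30.8 kb of sequence. The DIFF1 peak over the start codon had a score of 49.5, with 31.1 ChIP and 10.5 input tags and a fold of 2.97. In the coding exon the UNDIFF6 peak had 24.4 ChIP and 6.0 input tags and a fold of 4.06, and the UNDIFF8 peak 28.5 and 3.9 tags and a fold of 7.37. They shared 165 bp. The 5 DIFF2 peaks around the gene were all soft-masked at their centre, and none lay in the gene. At Olfr206, in the same cluster, the UNDIFF6 and UNDIFF8 peaks printed above overlapped 5.34 kb upstream of the start site, with folds of 2.81 and 3.72.

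**Figure D4:**
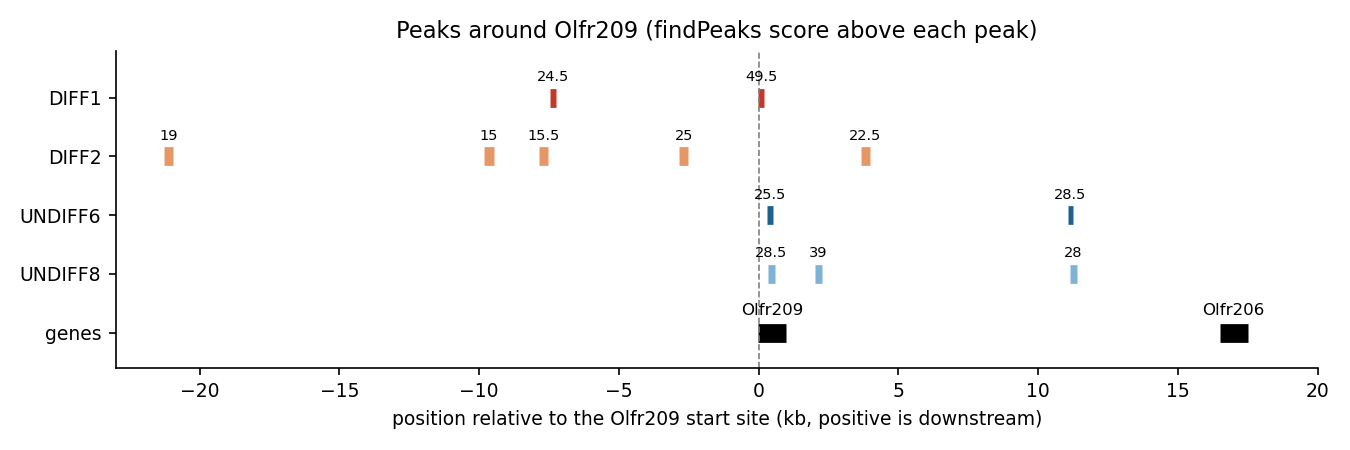
Peaks of the 4 lists around the start site of Olfr209, drawn to scale by distance in kb with downstream to the right and each findPeaks score above its peak. The DIFF1 peak covers the start site, the UNDIFF6 and UNDIFF8 peaks overlap in the exon at scores of 25.5 and 28.5 and again between Olfr209 and Olfr206, and the DIFF2 peaks lie elsewhere.

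Receptor peaks of different lists shared at least 1 bp in 43 pairs, at sites of 33 genes, and 37 of the pairs held a DIFF2 peak. UNDIFF6 and UNDIFF8 shared 5 sites. These are 6.02% of the receptor peaks of UNDIFF6 and 4.24% of those of UNDIFF8, where 1.45% of all UNDIFF6 peaks and 1.74% of all UNDIFF8 peaks overlapped the other list. DIFF1 and DIFF2 shared 17, which is 7.87% of the receptor peaks of DIFF1, with 5.71% of all DIFF1 peaks, and 0.452% of those of DIFF2, with 0.421% of all DIFF2 peaks. Between the states, DIFF2 shared 14 sites with UNDIFF8 and 6 with UNDIFF6. They are 11.9% of the receptor peaks of UNDIFF8, with 8.75% of all, and 7.23% of those of UNDIFF6, with 5.54% of all. Of the DIFF2 receptor peaks they are 0.372%, with 0.258% of all DIFF2 peaks, and 0.159%, with 0.195% of all. DIFF1 shared 1 site with UNDIFF8, at Vmn1r27, where 0.365% of all DIFF1 and 0.913% of all UNDIFF8 peaks overlapped. It shared 0 with UNDIFF6, where 0.285% of all DIFF1 and 0.597% of all UNDIFF6 peaks did. No test of these counts was made, and only the UNDIFF pair had a share over 2 times its background.

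The genes of highest score among the shared sites were Olfr161, Olfr214, Vmn1r41, Olfr372, Olfr112, Vmn1r48, Vmn1r11, Vmn2r129, Vmn2r112 and Olfr441. Their scores come from different lists, which differ in their lowest score, so the order serves only to pick names. At Olfr214 the DIFF2 and UNDIFF8 peaks shared 223 bp at 7.37 kb upstream, with scores of 51.5 and 61.5. At Olfr112 the UNDIFF peaks shared 193 bp at 10.4 kb downstream, with folds of 6.26 in UNDIFF6 and 4.46 in UNDIFF8. At Olfr372 the UNDIFF peaks shared 195 bp at 17.5 kb upstream, with folds of 2.82 and 2.30. A soft-masked centre in the first-named list was found in 35 of the 43 pairs. These were 15 of 17 for DIFF1 with DIFF2, 5 of 6 for DIFF2 with UNDIFF6 and 14 of 14 for DIFF2 with UNDIFF8. For UNDIFF6 with UNDIFF8 it was 1 of 5, that at Olfr161, and for DIFF1 with UNDIFF8 0 of 1. Over all receptor peaks the centre was soft-masked in 41.2% of DIFF1, 92.7% of DIFF2 and 32.5% of UNDIFF6. The counts thus depend on the list named first and set no pair apart.

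Receptor peaks were more often in repeats than the other peaks of the same list. The centre was soft-masked in 41.2% of receptor peaks in DIFF1, 92.7% in DIFF2, 32.5% in UNDIFF6 and 34.7% in UNDIFF8, against 26.4, 85.9, 21.3 and 26.1% of other peaks. The difference averaged 10.4 percentage points and was positive in 4 of 4 lists (exact sign-flip permutation test, two-sided p = 0.125). Sequence nearest to receptors is itself 52.0% soft-masked, against 36.1% elsewhere. Outside DIFF2 receptor peaks were thus less often in repeats than their surroundings, and in DIFF2 more often.

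The E-box had a lower share in receptor peaks than in other peaks of each list, with only 1 receptor peak behind it in each list other than DIFF2. CACGTG, which reads the same on both strands, was found in 0.463% of receptor peaks in DIFF1, 1.14% in DIFF2, 1.20% in UNDIFF6 and 0.847% in UNDIFF8, against 2.03, 2.68, 2.14 and 1.47% of other peaks. These were 1, 43, 1 and 1 receptor peaks, and the 95% Wilson intervals of 0.0818 to 2.58% in DIFF1, 0.213 to 6.51% in UNDIFF6 and 0.150 to 4.64% in UNDIFF8 include the share of the other peaks, while that of DIFF2, 0.849 to 1.53%, does not. The mean difference was -1.17 percentage points and was negative in 4 of 4 lists (exact sign-flip permutation test, two-sided p = 0.125). In windows of 336 bp on the 10 kb grid, the width of a DIFF2 peak, CACGTG was found in 2.03% over receptor sequence and 3.27% elsewhere, so both kinds of DIFF2 peaks held it less often than their surroundings.

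GC content and fold over input differed less clearly. The median GC was 42.3, 42.7, 42.6 and 41.9% in receptor peaks of DIFF1, DIFF2, UNDIFF6 and UNDIFF8, against 44.7, 43.9, 42.6 and 42.4% in other peaks, a mean difference of -0.99 percentage points (exact sign-flip permutation test, two-sided p = 0.25). Receptor sequence has 38.9% GC and other sequence 41.7%, so receptor peaks and other peaks both stood above their own surroundings. The median fold over input was 4.23, 6.58, 3.75 and 4.44 in receptor peaks, against 4.31, 5.12, 3.38 and 4.14 in other peaks. The log2 fold differed by 0.15 on average (exact sign-flip permutation test, two-sided p = 0.25), mainly through DIFF2, where it was 0.36 higher. In DIFF2 the median input tags were 3.5 at receptor peaks and 4.8 at other peaks, and the ChIP tags 23.5 and 24.0.

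A central 50 bases found at 1 place in the genome was seen in 88.4, 63.4, 92.8 and 92.4% of receptor peaks in DIFF1, DIFF2, UNDIFF6 and UNDIFF8, against 94.9, 69.8, 97.4 and 93.4% of other peaks. In grid windows the share was 81.1% over Olfr, 52.6% over Vmn1r and 57.6% over Vmn2r sequence, and 86.2% elsewhere. Among peaks and windows of this kind, UNDIFF8 had 2.10 times the expected number of receptor peaks.

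**Figure D5:**
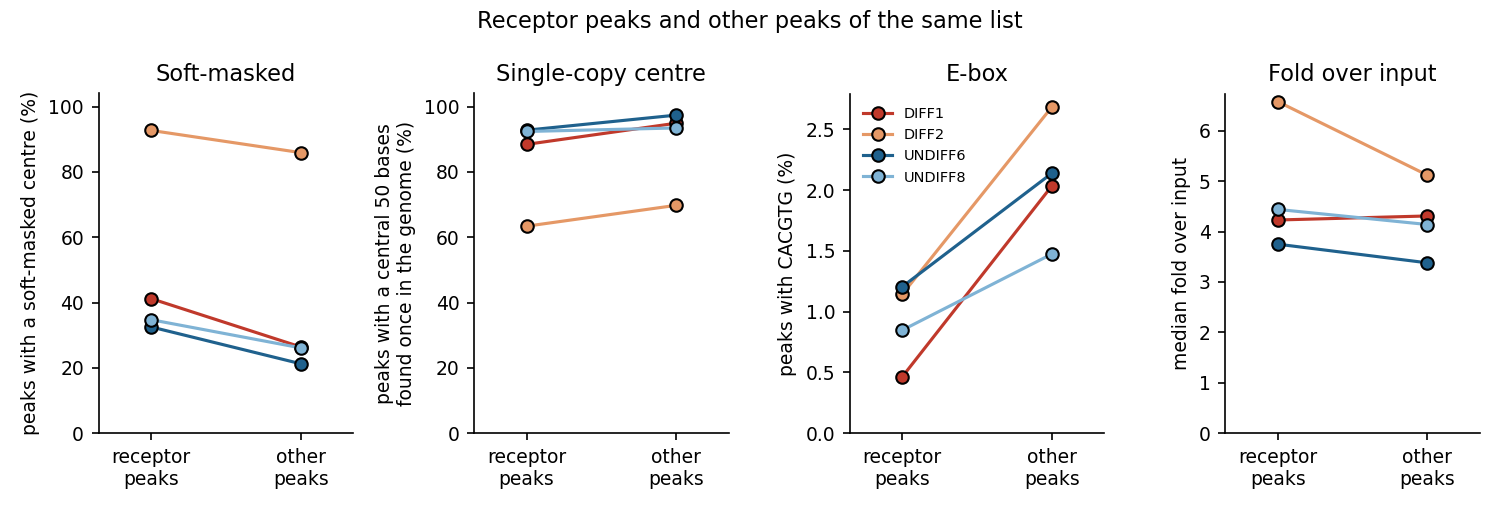
Receptor peaks (left) and other peaks (right) of DIFF1, DIFF2, UNDIFF6 and UNDIFF8, joined by a line for each list. The panels give the percent of peaks with a soft-masked centre, the percent with a central 50 bases found at 1 place in the genome, the percent with CACGTG and the median fold over input. In all 4 lists the soft-masked share is higher and the CACGTG share lower in receptor peaks.

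The commonest 12-base word of the DIFF2 receptor peaks was GAGCTAGAGAAA, counted on both strands. It was in 17.3% of receptor peaks and 9.88% of other DIFF2 peaks, and in 1.59% of grid windows of the same length over receptor sequence and 0.922% elsewhere. All 10 commonest words stand in the Olfr459 peak printed above, where they overlap into 3 runs, and 29.5% of the DIFF2 receptor peaks held at least 1 of the 10, with 29.2% for Olfr, 29.2% for Vmn1r and 30.5% for Vmn2r. That share was not computed for other DIFF2 peaks or for windows, so it has no background here. Taken singly, the 10 words were in 15.4 to 17.3% of receptor peaks and 8.76 to 9.88% of other DIFF2 peaks. The commonest word of the other DIFF2 peaks, CACACACACACA, was in 11.3% of receptor peaks and 26.3% of other peaks, against 2.56 and 4.91% of the windows. AGGCAGAGGCAG, which stands in the B1 repeat of rodents, was in 5.71% and 16.1%, against 0.475 and 1.72% of the windows. For each word the peaks of a region held it at least 4 times as often as its windows, over receptors and elsewhere. The words were picked for being common in these same peaks. A higher share in the peaks they were picked from is thus partly built in, and no test of it was made.

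The genes that make odour and pheromone detection work are no members of the 3 families and were taken from lists of known genes. Of 14 odour transduction genes, 6 had a peak in DIFF1, 13 in DIFF2, 3 in UNDIFF6 and 1 in UNDIFF8. Their peaks had a density of 6.31, 75.1, 2.87 and 0.574 per Mb in DIFF1, DIFF2, UNDIFF6 and UNDIFF8, against 5.19, 70.1, 2.49 and 2.07 per Mb for all peaks outside receptor sequence, so the counts of DIFF1, DIFF2 and UNDIFF6 lay near the background and the single UNDIFF8 peak under it. Pde1c, a phosphodiesterase of olfactory cilia, had peaks in every list, with 1, 37, 2 and 1 over 347 kb. Ano2, a calcium-gated chloride channel, had 4, 20, 2 and 0, and Cnga2, a subunit of the cyclic nucleotide-gated channel, 1, 13, 1 and 0. Adcy3, the adenylyl cyclase, and Gnal, the olfactory G protein, had peaks only in DIFF2, with 10 and 7. Of 4 pheromone transduction genes, Gnao1 had 2 peaks in DIFF1, and 3 of the 4 had peaks in DIFF2, with none in UNDIFF6 or UNDIFF8. The 5 DIFF2 peaks of this list came to 47.2 per Mb and the 2 of DIFF1 to 18.9 per Mb. Trpc2, the ion channel of vomeronasal neurons, had 0 in all 4 lists, with 14.5 kb of nearest sequence. Of the 4 genes for receptor transport to the cell surface, Reep1 had 1 peak in DIFF1 and Rtp2 1 in UNDIFF6, and all 4 had peaks in DIFF2, at 2.58 per Mb in DIFF1, 90.2 in DIFF2 and 2.58 in UNDIFF6. Of 11 genes for receptor choice, 4, 10, 1 and 1 had a peak in DIFF1, DIFF2, UNDIFF6 and UNDIFF8, among them Lbr, an inner nuclear membrane protein, with 2, 19, 1 and 0. Their density was 4.54, 52.7, 0.909 and 0.909 per Mb, under the genome-wide background in all 4 lists, with 1 peak each in UNDIFF6 and UNDIFF8. The densities of these gene lists are not adjusted for chromosome. A value over or under the background therefore shows no excess or depletion at these genes.

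The other chemoreceptor families, 56 trace amine, formyl peptide related and taste receptor genes, had 17 peaks in DIFF1, 126 in DIFF2, 9 in UNDIFF6 and 9 in UNDIFF8. Their density was 7.95, 58.9, 4.21 and 4.21 per Mb. Receptor peaks of the Olfr, Vmn1r and Vmn2r families had 3.95, 68.9, 1.52 and 2.16 per Mb, and the rest of the genome 5.19, 70.1, 2.49 and 2.07. These densities are not adjusted for chromosome.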

How the data were processed

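BMAL1 ChIP-seq lists of 4 HC11 cultures, 2 DIFF and 2 UNDIFF, were analysed. The authors checked reads with FastQC 0.11.7, mapped them to GRCm38 by Bowtie2 2.2.9, and HOMER 4.10 found the peaks of each ChIP over its input, per the submitters' processing notes and the study's methods. The study set the HOMER fold limits over input, local tags and expected tag positions to 2. It states that this relaxed the defaults and likely raised the number of false positives. A DIFF pair was sequenced far deeper than the other pairs, so the study divided its reads and used only part of them. The DIFF peak number in the study's text is near the 13683 peaks of DIFF1 and far under the 185417 of DIFF2. The reason was not tested. The deposited lists give ChIP and input tags and normalized tag counts (signal), the findPeaks score and the fold over input as a ratio. In DIFF1 and UNDIFF6 the ChIP tags, and in DIFF2 and UNDIFF8 the input tags, were scaled down by the authors. Depth was read from tags and normalized tag counts, and tags outside peaks are not listed, so lack of a peak is not lack of binding. The deposited p-values were not used, and the inputs were not analysed on their own.

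Peak centres were assigned to the nearest start site of 45756 curated RefSeq transcripts of 26180 genes on GRCm38. Soft-masking, GC and CACGTG were read from the RefSeq genome, and 0 peaks ran past a chromosome end. Expected numbers multiply, on each chromosome, the density of other peaks by the bases nearest to receptors, without gaps. The central 50 bases were counted over the genome on both strands. Lists were compared by exact permutation tests (2 against 2) or exact sign-flip tests over 4 lists, two-sided, at a threshold of 0.05, and p-values measure only the spread between 4 lists. The receptors named are those in all 4 lists, at shared sites, in promoters outside DIFF2, at the 3 highest scores of a list or with the most peaks of their family in a list, and the 10 clusters with most genes. Members, rules and lists were chosen with earlier results of these data known. Alternatives were a fold of 4, no soft-masked centres, 100 kb from a start site, equal list sizes of 5475 peaks, other start sites, single families, 50% overlap, 500 kb between clusters, leaving out a list, and 2 chosen after seeing the data: a central 50 bases found at 1 place, and leaving out Olfr161 and Vmn1r2. Assignment, overlaps, tests and copy counts were tested on simulated data. Scripts ran under Python 3.11.15 (with scipy 1.17.1, numpy 2.4.6, matplotlib 3.10.9, pandas 2.3.3).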

Additional observations from a re-analysis of the deposited data

How the results depend on the processing

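Each list is 1 sample, and neither test design could pass the threshold, so p-values say nothing of stability. The mean receptor share of DIFF minus UNDIFF lists, 0.092 percentage points, turned to -0.336 without soft-masked centres, -0.438 with equal list sizes, -0.0107 with only peaks whose central 50 bases stand at 1 place, and -0.0616 for Vmn1r and Vmn2r genes, and ran from -0.351 to 0.534 when a list was left out. The mean log2 density ratio, 0.19, ran from -0.0237 to 0.291 when a list was left out and was negative only without UNDIFF8. The 43 overlapping pairs became 18 at a fold of at least 4, 7 without soft-masked centres, 12 with equal list sizes and 23 with only centres at 1 place, and 6 to 32 without a list, since fewer peaks enter. The other alternatives for these results, and all alternatives for the soft-masked share, E-box share, GC and fold, kept the direction. The number of clusters was 68, and 76 with gaps of 500 kb. Repeats left the soft-masked comparison with no value in 1 alternative. The density ratio of UNDIFF8 alone ran from 1.58 to 2.10 over 8 alternatives. The share was negative without DIFF2 or UNDIFF6, and the pairs numbered 25 without DIFF1, 6 without DIFF2 and 23 without UNDIFF8. No paired analysis was possible because DIFF and UNDIFF cultures share no replicate number and the inputs have no peak list of their own. UNDIFF lists hold 83 and 118 receptor peaks, so most clusters and genes have under 3 expected peaks, and a depletion there is not detectable at this depth.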
